A study of Mus musculus with 15 samples.

Results

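The genes described here were the 6 myosin heavy chain genes of skeletal muscle fibers, Myh1, Myh2, Myh4, Myh7, Myh3 and Myh8, and the long noncoding RNA gene 2310065F04Rik, known as linc-MYH, which lies in the same cluster on chromosome 11. They were chosen by name and found by matching Ensembl identifiers to symbols, and are 7 of the 39179 genes listed for each mouse. RNA of quadriceps muscle was sequenced from 15 C57BL/6 mice. At 3 mo there were 4 wild-type and 4 V338Y animals, and at 19 mo 3 wild-type and 4 V338Y animals. V338Y mice were homozygous for an amino acid exchange in Mrps5, a protein of the small subunit of the mitochondrial ribosome, and the study used them as a model of mitochondrial misreading. The exchange is carried by the whole animal, so that muscle, nerve and blood are mutant alike. The mice received no treatment. Quadriceps was sampled as whole tissue, and fewer fibers of a type and less RNA per fiber cannot be told apart in these values.

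Myosin heavy chain is the motor of the thick filament, and the isoform that a fiber makes sets how fast it shortens. In adult limb muscle of the mouse, Myh4 encodes the IIb isoform of the fastest, glycolytic fibers and Myh1 the IIx isoform. Myh2 encodes the IIa isoform of fast oxidative fibers and Myh7 the slow isoform of type I fibers. Myh3 and Myh8 encode the embryonic and the perinatal isoform, made by developing and regenerating fibers. The noncoding linc-MYH is transcribed in fast fibers next to the fast Myh genes.

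The fast and developmental genes stand in a row on chromosome 11 (GRCm38, GENCODE M21). From the 5′ end of Myh3 to the 3′ end of Myh13 the cluster spans 293.3 kb with 11 of the genes listed for each mouse. Of these, 2 small RNA genes had 0 counts in every mouse. Myh3 (ENSMUSG00000020908, chr11:67078300-67102291) is followed on the opposite strand by linc-MYH (ENSMUSG00000087410, chr11:67112461-67120080), whose longest transcript has 5 exons. Then come Myh2 (ENSMUSG00000033196, chr11:67171027-67197517), Myh1 (ENSMUSG00000056328, chr11:67200052-67224575), Myh4 (ENSMUSG00000057003, chr11:67238029-67260446) and Myh8 (ENSMUSG00000055775, chr11:67277124-67308634), all on the plus strand. The interval between linc-MYH and Myh2 holds 50946 bp and none of the listed genes. Myh7 (ENSMUSG00000053093, chr14:54970684-54994626, minus strand) lies on another chromosome. The coding transcripts have 39 to 41 exons and resemble each other. Of all windows of 1 read length in the longest transcript, 7.81% of those of Myh7 also occurred in Myh6, 5.15% of those of Myh1 in Myh2, Myh4, Myh8 or Myh13, 4.1% of those of Myh2, 3.32% of those of Myh8 and 1.83% of those of Myh4 in other genes of the cluster, and 0.711% of those of Myh3 in Myh13. No window of linc-MYH occurred in another gene. Reads from the shared windows were divided between the genes by estimation, so that small values of Myh8 beside Myh4 are uncertain.

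The DNA just upstream of the members is shown because 4 of the cluster genes, Myh1, Myh2, Myh4 and Myh8, carry a stretch in common that the choice of genes did not use. The sequences come from RefSeq (GRCm38.p6), whose promoter windows reach from 250 bases before to 50 bases after the start of transcription and were found for all 7 members. The RefSeq start lies 50 bp from the GENCODE start for Myh1 and 217 bp for Myh4, and at the same base for the other genes printed. Below, 114 bases around the shared stretch are given in the order of the genes on the chromosome, with the stretch in capitals.
Myh2, chr11:67170852-67170965, plus strand: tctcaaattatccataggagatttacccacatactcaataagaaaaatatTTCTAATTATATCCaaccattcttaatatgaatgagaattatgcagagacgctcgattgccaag
Myh1, chr11:67199892-67200005, plus strand: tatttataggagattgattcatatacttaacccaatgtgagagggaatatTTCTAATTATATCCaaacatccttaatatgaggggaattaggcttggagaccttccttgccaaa
Myh4, chr11:67237604-67237717, plus strand: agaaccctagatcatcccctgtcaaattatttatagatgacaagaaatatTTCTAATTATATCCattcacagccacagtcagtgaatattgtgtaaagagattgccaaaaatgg
Myh8, chr11:67277020-67277133, plus strand: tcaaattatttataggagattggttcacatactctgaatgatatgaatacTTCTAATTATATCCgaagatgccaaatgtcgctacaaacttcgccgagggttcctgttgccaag
The 14 bases TTCTAATTATATCC occurred in these 4 windows and in no other of the 32817 promoter windows searched on both strands, a share of 0.0122%. These 14 bases were found as the longest run common to the 4 windows, so that their presence in all 4 was set by the search. They began 125 bases before the start in Myh2 (position -125), and at -160 in Myh1, -158 in Myh4 and -54 in Myh8. Another run of 15 bases, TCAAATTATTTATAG, was shared by Myh1, Myh4 and Myh8 alone, 3 windows or 0.00914%. It was found in the same way, as the longest run common to those 3 windows, and lies partly outside the bases printed for Myh1. In these 3 windows it holds a match of TATAAA on the other strand.

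The windows of Myh3, of linc-MYH and of Myh7 had neither run. That of Myh3 is not printed. Those of linc-MYH and Myh7 are given as the 250 bases before the start, read on the minus strand, with an E-box in capitals where one was found.
linc-MYH, chr11:67120081-67120330, minus strand: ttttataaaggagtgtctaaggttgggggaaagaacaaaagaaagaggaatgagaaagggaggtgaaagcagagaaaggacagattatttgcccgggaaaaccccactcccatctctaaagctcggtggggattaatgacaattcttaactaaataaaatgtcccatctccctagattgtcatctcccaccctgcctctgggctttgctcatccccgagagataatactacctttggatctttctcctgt
Myh7, chr14:54994627-54994876, minus strand: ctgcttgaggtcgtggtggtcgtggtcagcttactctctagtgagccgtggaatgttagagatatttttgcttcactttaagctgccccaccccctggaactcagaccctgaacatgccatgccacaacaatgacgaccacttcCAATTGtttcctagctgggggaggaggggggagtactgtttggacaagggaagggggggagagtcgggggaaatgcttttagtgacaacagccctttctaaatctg
E-boxes, the letters CANNTG bound by MyoD and its relatives, were found in the windows of 4 of the 7 members and in 72.3% of all windows. The letters TATAAA were found in 6 of the 7 and in 13.6% of all windows. On both strands a match is only a match of letters within these windows.

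Each library held between 8250653 and 18968132 counts, and 0 pairs of libraries were identical. Values below are in CPM, that is, counts relative to library sizes adjusted by TMM, and tests are edgeR's quasi-likelihood test, adjusted by Benjamini-Hochberg over all genes tested, with a threshold of 0.05 on the adjusted p. All 7 members passed the filter on low counts in every comparison. Genes that define muscle fibers (Acta1, Ckm, Ttn, Neb and Mb) summed to between 123000 and 241000 CPM, and the heart hormones Nppa and Nppb had 0 counts in all mice. Tnnt2 and Tnni3, also listed for heart, were at 0.536 to 3.60 CPM and 0.0575 to 1.10 CPM. Old mice had Xist at 506 to 631 CPM and the Y-linked Ddx3y below 0.1 CPM, whereas young mice had Xist below 1 CPM and Ddx3y at 163 to 202 CPM. The study's methods give the young mice as female. Age and sex therefore cannot be told apart in any comparison of 19 mo with 3 mo mice below. Mrps5 itself, which carries the exchange and is not deleted, was at 14.96 to 27.5 CPM. The 19 mo mice numbered 5, 1 of each genotype, and the 3 mo V338Y mouse 1 stood apart in several members, and results that rest on them are also given without them.

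Myh4, the IIb isoform, was the dominant heavy chain transcript. It took 2.52% to 7.80% of all counts of a mouse. At 3 mo it was at 71996, 70284, 69222 and 63121 CPM in the wild-type mice 1 to 4 and at 70770, 72674, 68992 and 66641 CPM in the V338Y mice 1 to 4. At 19 mo it was at 79603, 59360 and 40204 CPM in the wild-type mice 2, 4 and 5, and at 39868, 68759, 51333 and 22410 CPM in the V338Y mice 2 to 5. The young mice lay close together whatever their genotype, while the old mice spread widely and included both the highest and the lowest values of all. The means were 68656 ± 3863 (SD, n = 4) and 69769 ± 2571 (n = 4) at 3 mo, and 59722 ± 19702 (n = 3) and 45592 ± 19492 (n = 4) at 19 mo. No comparison of Myh4 passed the test. With age the log2 fold change was -0.20 (SE 0.23, edgeR adjusted p = 0.521) in wild-type and -0.60 (SE 0.35, adjusted p = 0.175) in V338Y mice. At 3 mo the genotypes differed by 0.027 on the log2 scale with a 95% interval of -0.14 to 0.19.

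**Figure D1:**
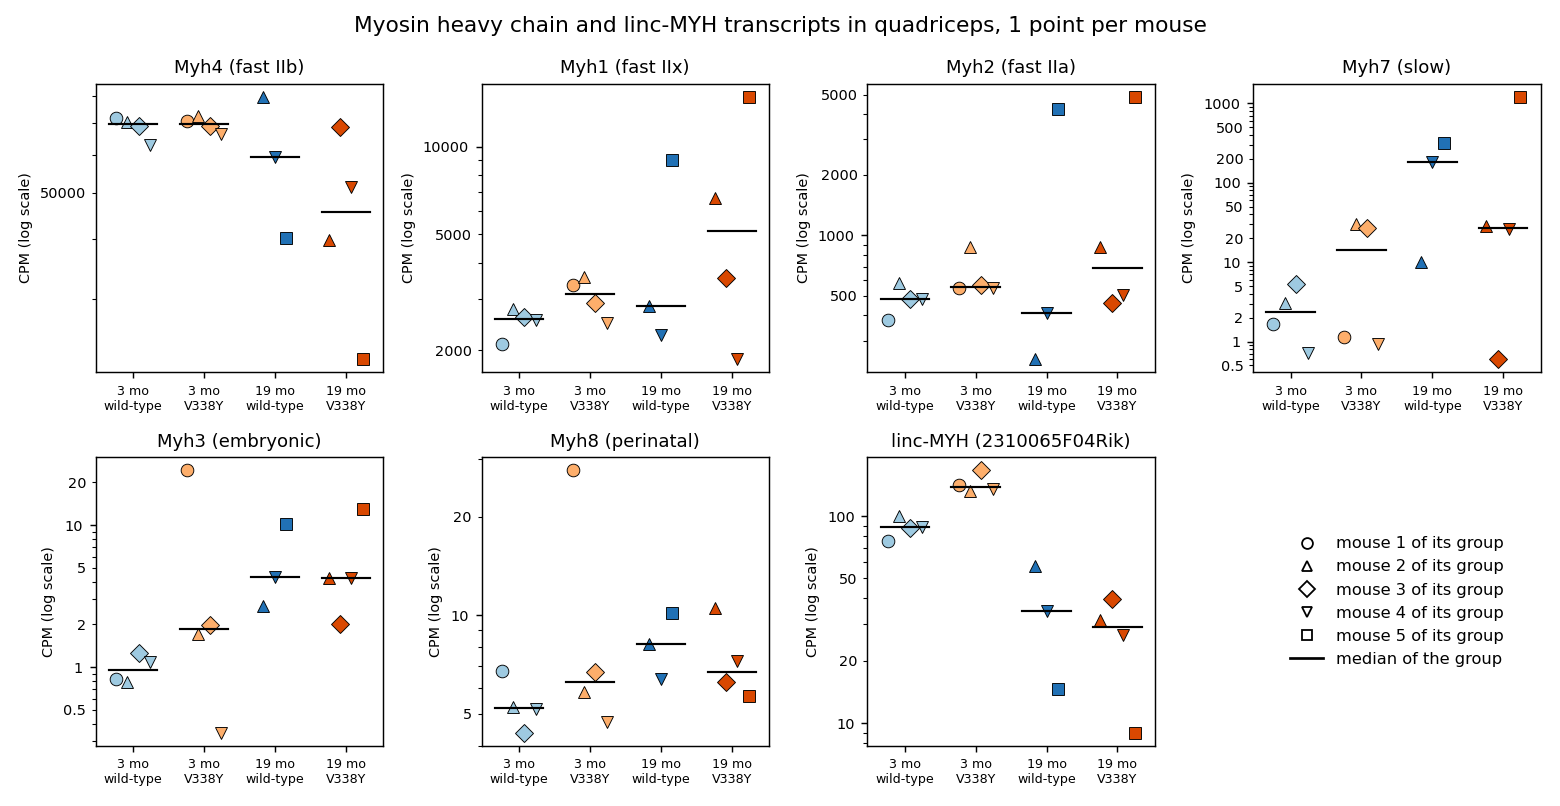
CPM of each of the 7 genes in every mouse, on a logarithmic axis, by age and genotype, where each marker is 1 mouse, its shape gives the mouse number and the line is the group median. Myh4 of the 3 mo mice lies between 63121 and 72674 CPM, linc-MYH of 3 mo V338Y mice lies above that of 3 mo wild-type mice, and the 19 mo mice numbered 5 are the highest in Myh1, Myh2 and Myh7.

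Myh1, the IIx isoform, ranged from 2102 to 2762 CPM in 3 mo wild-type mice and from 2477 to 3573 CPM in 3 mo V338Y mice. At 19 mo it was at 2829, 2264 and 9030 CPM in the wild-type mice 2, 4 and 5, and at 6693, 3541, 1867 and 14856 CPM in the V338Y mice 2 to 5. The mice numbered 5 were the highest of either genotype, and all groups overlapped. With age Myh1 differed by a log2 fold change of 0.91 (SE 0.41, edgeR adjusted p = 0.106) in wild-type and 1.14 (SE 0.52, adjusted p = 0.0964) in V338Y mice. Without the wild-type mouse 5 the former value was 0.019 (adjusted p = 0.926), and without the V338Y mouse 5 the latter was 0.42 (adjusted p = 0.338).

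Myh2, the IIa isoform, showed the same mice apart more sharply. It ranged from 378 to 580 CPM in 3 mo wild-type mice and was at 549, 878, 564 and 546.5 CPM in the 3 mo V338Y mice 1 to 4. In the 19 mo wild-type mice 2, 4 and 5 it was at 243, 411 and 4246 CPM, and in the V338Y mice 2 to 5 at 876, 462, 507 and 4880 CPM. The mice numbered 5 lay far above all others, which lay between 243 and 878 CPM at both ages. The log2 fold change with age was 1.76 (SE 0.79, edgeR adjusted p = 0.109) in wild-type mice and -0.56 (adjusted p = 0.0845) without mouse 5. In V338Y mice it was 1.41 (SE 0.69, adjusted p = 0.119), and -0.018 (adjusted p = 0.960) without mouse 5. By genotype Myh1 and Myh2 differed by 0.30 (SE 0.12) and 0.40 (SE 0.17) at 3 mo and by 0.54 (SE 0.73) and 0.069 (SE 1.13) at 19 mo on the log2 scale, and the edgeR adjusted p was 0.469, 0.488, 0.848 and 0.994, respectively.

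Myh7, the slow isoform, was up-regulated with age in wild-type mice. It was at 1.64, 3.05, 5.31 and 0.726 CPM in the 3 mo wild-type mice 1 to 4 and at 9.95, 181 and 320 CPM in the 19 mo wild-type mice 2, 4 and 5. The groups did not overlap. The log2 fold change was 5.91 (SE 1.01, edgeR adjusted p = 0.00248), and 5.07 (adjusted p = 0.00511) without mouse 5. Of the 7 members, 4 passed the test in this comparison, 3 up-regulated and 1 down-regulated, in a background where 36.2% of the 13657 genes tested passed it. Groups did not overlap for 3 members, Myh7, Myh3 and linc-MYH, against 43.4% of the genes tested.

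In V338Y mice Myh7 varied among mice of the same age. It was at 1.15, 30.2, 27.2 and 0.922 CPM in the 3 mo mice 1 to 4 and at 28.3, 0.604, 26.3 and 1210 CPM in the 19 mo mice 2 to 5. Both ages held mice with almost none and mice with clear levels, and the highest value of any mouse was that of the 19 mo mouse 5. The log2 fold change with age was 4.42 (SE 1.84) and missed the threshold (edgeR adjusted p = 0.0733). Without mouse 5 it was 0.31 (adjusted p = 0.832). In this comparison 1 of the 7 members passed the test and had no overlap of groups, linc-MYH, where 46.9% of the 13868 genes tested passed and 42.2% did not overlap. The genotypes differed in Myh7 by 2.40 (SE 0.96, adjusted p = 0.473) at 3 mo and by 0.92 (SE 1.84, adjusted p = 0.909) at 19 mo. Leaving out both 19 mo mice numbered 5 turned the latter value to -2.36 (adjusted p = 0.692).

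Slow partner genes were higher with age in wild-type mice, and some but not all followed Myh7 from mouse to mouse. The 8 genes listed were the slow troponins Tnnt1, Tnni1 and Tnnc1, the slow tropomyosin Tpm3, the slow myosin light chains Myl2 and Myl3, the calcium pump Atp2a2 and the calcium store protein Casq2. Their summed level was 86.0 to 101 CPM in 3 mo wild-type mice, 74.5 to 191 in 3 mo V338Y mice, 91.0 to 609 in 19 mo wild-type mice and 84.3 to 1800 CPM in 19 mo V338Y mice. With age 7 of the 8 were up-regulated in wild-type mice (median log2 fold change 3.56, against 0.019 over all genes tested, of which 36.2% passed in either direction), among them Tnnt1 with 3.58 (SE 0.73, edgeR adjusted p = 0.00557). Tnni1 entered this test only through the 19 mo mice, in which it is high, and had 0.453 to 0.852 CPM in the 3 mo wild-type mice. Without mouse 5 the number was 5 of 8 and the median 2.52. In V338Y mice 0 of the 8 passed, against 46.9% of all genes tested, with a median of 2.19 that was -0.65 without mouse 5. Scaled to 10 contractile genes of all fibers, 5 of the 8 were up-regulated in V338Y mice (median 2.78) and 7 in wild-type mice. Under this scaling 6834 of 13868 genes passed in V338Y mice, 96% of them up, with a median of 0.58 over all genes. In wild-type mice 3713 of 13657 passed, 74% of them up, with a median of 0.14. Tnnt1, for example, was at 3.23, 24.2 and 44.7 CPM in the 19 mo wild-type mice 2, 4 and 5, and at 5.61, 0.536, 4.42 and 166 CPM in the V338Y mice 2 to 5. The 7 mice had the same order as in Myh7. At 3 mo Myl2, the slow regulatory light chain, was at 30.9 and 21.2 CPM in the V338Y mice 2 and 3 and at 0.912 to 6.17 CPM in the other 3 mo mice, and these were also the mice with the higher Myh7. In the V338Y mouse 1, by contrast, Tnni1 (4.71 CPM) and Casq2 (19.8 CPM) were the highest of all 3 mo mice while Myh7 was at 1.15 CPM.

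Myh6, a heavy chain of the heart with which Myh7 shares reads, was at 0.461 to 7.50 CPM in all mice. The 4 heavy chains listed for muscle spindles and other special fibers, Myh6, Myh7b, Myh13 and Myh15, summed to 2.15 to 15.3 CPM in 14 mice and to 32.0 CPM in the 19 mo V338Y mouse 5. The part of either in the Myh7 values was not tested. Markers of other cells in the tissue also differed with age. In 19 mo against 3 mo mice of both genotypes the summed markers of smooth muscle were 115 to 203 against 64.2 to 88.0 CPM, of Schwann cells 28.4 to 71.9 against 17.1 to 27.4 CPM and of macrophages 133 to 225 against 95.3 to 152 CPM. Adipocyte markers summed to 269 to 1090 CPM at 3 mo and 140 to 280 CPM at 19 mo in wild-type mice, and to 196 to 444 CPM and 154 to 867 CPM in V338Y mice. Of the 5, 2 were down-regulated with age in wild-type mice (median log2 fold change -1.01) and 1 was up-regulated in V338Y mice (median 0.93). Over all genes tested, 36.2% and 46.9% passed in these comparisons in either direction. Fiber markers summed to between 190000 and 241000 CPM at 3 mo and between 123000 and 205000 CPM at 19 mo. The part of these markers in the values of the members was not tested.

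**Figure D2:**
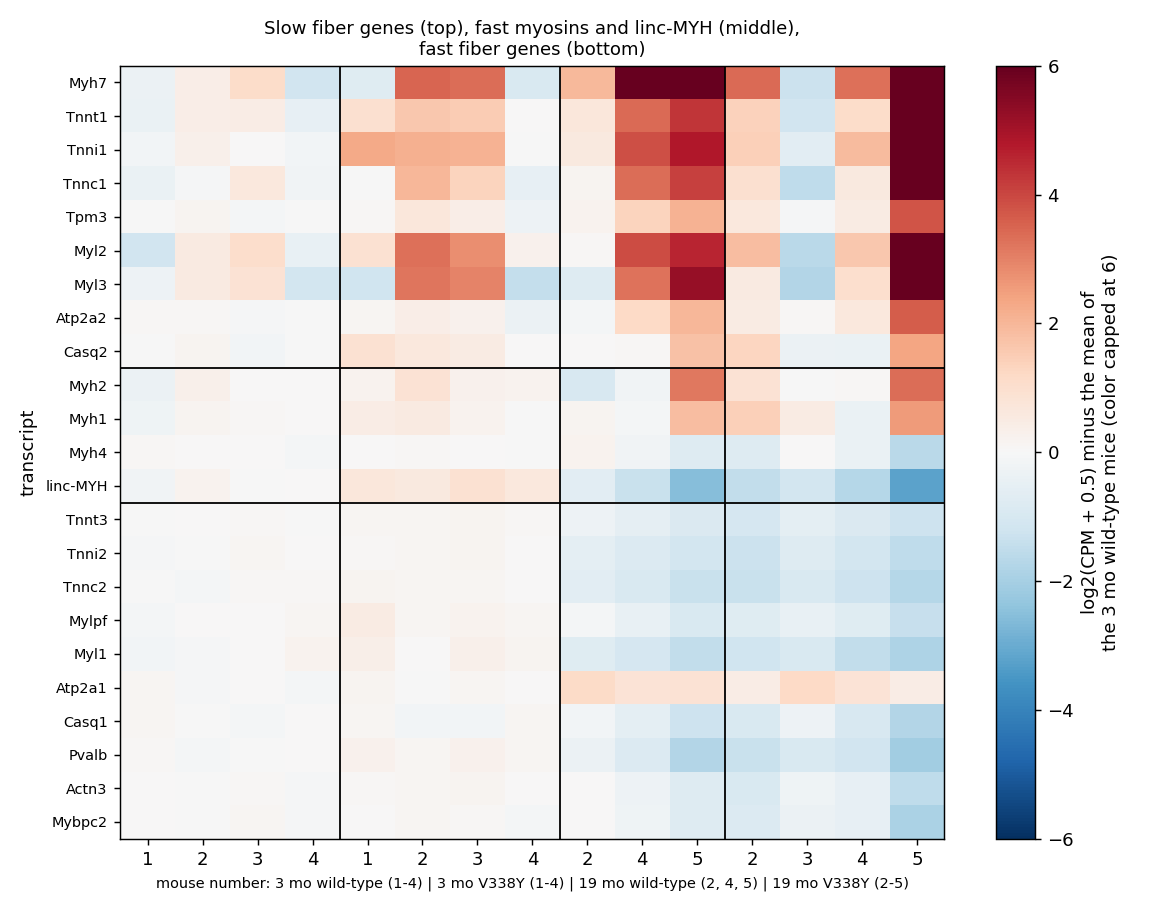
Heat map of slow partner genes with Myh7, of Myh2, Myh1, Myh4 and linc-MYH, and of fast partner genes in all 15 mice, as log2(CPM + 0.5) minus the mean of the 3 mo wild-type mice, with the color scale limited at 6. The slow genes are raised in the 19 mo wild-type mice 4 and 5 and the V338Y mouse 5, where Tnnt1 reached 24.2, 44.7 and 166 CPM, and the fast partners other than Atp2a1 are mostly lower at 19 mo.

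Myh3, the embryonic isoform, was scarce in all mice. It was at 0.821, 0.781, 1.26 and 1.09 CPM in the 3 mo wild-type mice 1 to 4 and at 2.67, 4.30 and 10.1 CPM in the 19 mo wild-type mice 2, 4 and 5. The groups did not overlap, and Myh3 was up-regulated with age by a log2 fold change of 2.49 (SE 0.45, edgeR adjusted p = 0.00326), with 9 to 19 counts in each young mouse. In a fit of all 15 mice it missed the threshold (2.49, adjusted p = 0.0786). In V338Y mice it was at 24.2, 1.72, 1.99 and 0.346 CPM at 3 mo in mice 1 to 4 and at 4.21, 2.01, 4.22 and 12.99 CPM at 19 mo in mice 2 to 5. The 3 mo mouse 1 had the highest value of all mice. The log2 fold change with age was -0.31 (SE 0.96, adjusted p = 0.808). Without this mouse it was 2.08 (adjusted p = 0.0431), and the genotype difference at 3 mo went from 2.91 (SE 1.01, adjusted p = 0.426) to 0.49 (adjusted p = 0.790).

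Myh8, the perinatal isoform, had the same mouse apart. It ranged from 4.38 to 6.75 CPM in 3 mo wild-type mice, and was at 27.7, 5.81, 6.70 and 4.73 CPM in the 3 mo V338Y mice 1 to 4. At 19 mo it ranged from 6.37 to 10.2 CPM in wild-type and from 5.66 to 10.5 CPM in V338Y mice. Apart from the V338Y mouse 1, all groups lay within a narrow band and overlapped. The age difference in wild-type mice passed the test with a log2 fold change of 0.62 (SE 0.20, edgeR adjusted p = 0.0376), and missed it without any 1 of the 3 mo mice 2, 3 and 4 and the 19 mo mice 2 and 5 (0.43, adjusted p = 0.131, without the last) and in a fit of all 15 mice (adjusted p = 0.339). In V338Y mice it was -0.64 (SE 0.52, adjusted p = 0.338), and 0.36 (adjusted p = 0.262) without the 3 mo mouse 1. The genotype difference at 3 mo was 1.13 (SE 0.50, adjusted p = 0.509), and 0.11 (adjusted p = 0.889) without that mouse.

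The 3 mo V338Y mouse 1 was also the highest of the 3 mo mice in other genes of developing fibers. Its embryonic light chain Myl4 was at 9.14 CPM against 1.77 to 3.37 CPM in the other young mice, the fetal acetylcholine receptor subunit Chrng at 1.49 against at most 0.0907 CPM and the fusion protein Mymk at 0.805 against at most 0.0827 CPM. Cardiac actin Actc1 was at 301 against 85.3 to 240.5 CPM. Igfn1, an immunoglobulin-like protein of muscle, was at 111 CPM in this mouse but higher, at 141 CPM, in the V338Y mouse 3. Of the 14 genes listed for development and regeneration, 11 were tested with age in wild-type mice, where 4 were up- and 1 down-regulated, against 36.2% of all genes called in either direction. In V338Y mice 3 were up- and 2 down-regulated of 12, against 46.9% of all genes. After scaling to contractile genes 5 were up- and 0 down-regulated, where 96% of the calls over all genes were up. Among them was Myog, a transcription factor of differentiating myoblasts, at 1.43 (SE 0.37, edgeR adjusted p = 0.0111) in V338Y mice.

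The lincRNA linc-MYH was the only member that passed the test of genotype, and it fell with age in both genotypes. In the 3 mo wild-type mice 1 to 4 it was at 75.9, 100.1, 87.2 and 88.9 CPM and in the 3 mo V338Y mice 1 to 4 at 141, 133, 166 and 134.5 CPM. Every young V338Y mouse was above every young wild-type mouse. Its mean was 143 ± 15.3 CPM (SD, n = 4) against 88.0 ± 9.93 CPM (n = 4), a 1.63-fold difference with a log2 fold change of 0.71 (SE 0.097, 95% interval 0.49 to 0.92, edgeR adjusted p = 0.0284). At this threshold 1 of the 7 members passed, in a background of 10 of 13333 genes or 0.075%, and its lack of overlap between genotypes was shared by 4.71% of the genes tested. At an unadjusted p under 0.05 there were 1293 genes. The direction was the same without any 1 mouse (0.63 to 0.77), but the call was lost without any 1 of 6 of the 8 mice (the wild-type mice 3 and 4 and each V338Y mouse), where the edgeR adjusted p was 0.0555 to 0.107. It was also lost when counts were scaled to 10 contractile genes of all fibers (0.63, adjusted p = 0.114), with the mouse number as a block (0.71, adjusted p = 0.0575) and in a fit of all 15 mice (0.70, adjusted p = 0.865), whereas DESeq2 gave an adjusted p of 8.42e-08.

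At 19 mo linc-MYH was at 57.2, 34.7 and 14.6 CPM in the wild-type mice 2, 4 and 5 and at 31.4, 40.0, 26.6 and 9.0 CPM in the V338Y mice 2 to 5. All old mice were below all young mice, and in both genotypes mouse 5 was the lowest. The log2 fold change with age was -1.30 (SE 0.35, edgeR adjusted p = 0.0191) in wild-type mice, and missed the threshold without the 19 mo mouse 4 (-1.30, adjusted p = 0.0634). In V338Y mice it was -2.41 (SE 0.36, adjusted p = 6.95e-04), 5.33-fold lower, and -2.11 (adjusted p = 2.51e-05) without mouse 5. With the counts scaled to contractile genes linc-MYH was lower with age in both genotypes too, by log2 fold changes of -1.19 (adjusted p = 0.0184) and -1.92 (adjusted p = 7.20e-04). The means at 19 mo, 35.5 ± 21.3 CPM (n = 3) and 26.7 ± 13.1 CPM (n = 4), differed by -0.39 (SE 0.52, 95% interval -1.59 to 0.81, adjusted p = 0.848). From the highest to the lowest the groups were thus ordered 3 mo V338Y, 3 mo wild-type, 19 mo wild-type and 19 mo V338Y, of which the last pair did not differ beyond its spread.

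Among 19 mo mice 0 of the 7 members differed between genotypes, in a background of 6 of 13833 genes tested or 0.0434%, with 1235 genes at an unadjusted p under 0.05 and 62 called by DESeq2. Groups overlapped for all 7, while 9.79% of genes did not overlap. The labels do not say that the mouse number pairs mice. At 19 mo the deviations of same-numbered mice had r = 0.14 to 0.41, within the -0.42 to 0.49 of other pairs. With the number as a replicate block edgeR called 110 genes or 0.795%, again with 0 members (linc-MYH -0.61, adjusted p = 0.0766, Myh4 -0.65, adjusted p = 0.183). The interaction of age and genotype was called for 0 of 14128 genes by edgeR (0%), with 1361 at an unadjusted p under 0.05 and 26 by DESeq2. The interaction of linc-MYH was -1.12 on the log2 scale (SE 0.54, edgeR adjusted p = 0.532). The steeper fall with age in V338Y mice was therefore not shown to differ from that in wild-type mice. With the mouse number as a block it was -1.30 (adjusted p = 0.0270).

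**Figure D3:**
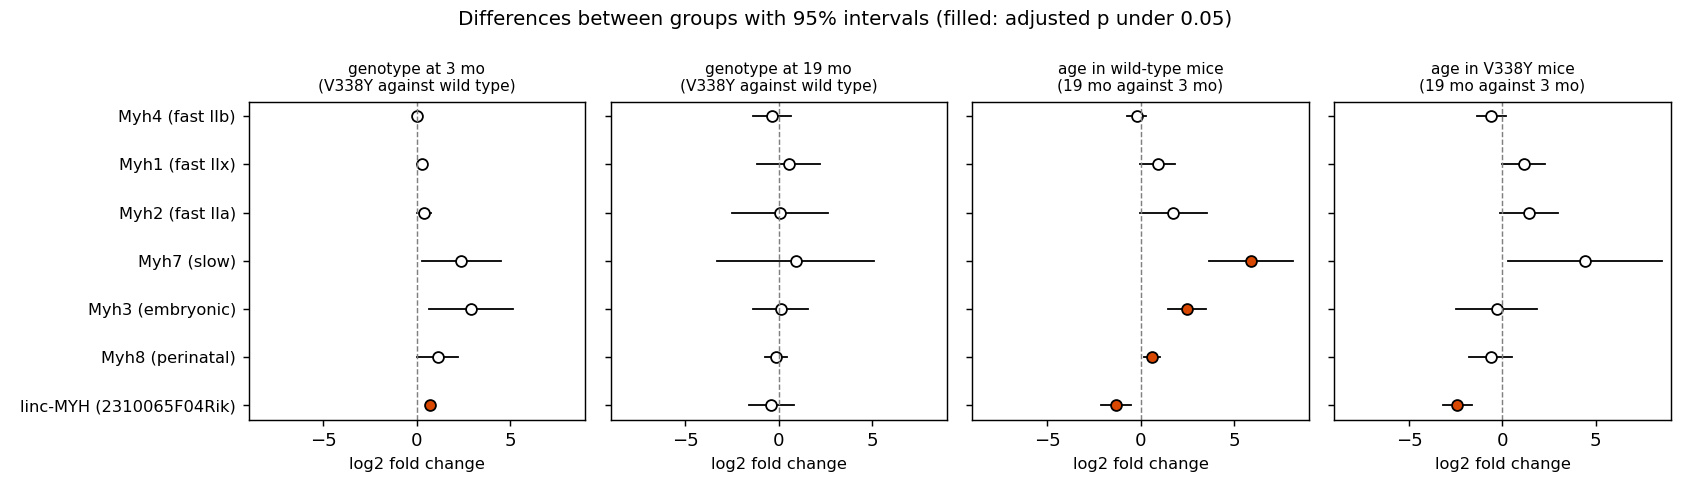
Log2 fold changes of the 7 genes with their 95% intervals in the age and genotype comparisons, from edgeR, with filled markers for an adjusted p under 0.05. Filled markers are those of Myh7, Myh3, Myh8 and linc-MYH with age in wild-type mice, of linc-MYH with age in V338Y mice and of linc-MYH by genotype at 3 mo (0.71).

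Per kilobase of exon, Myh4 averaged 11412 ± 642 CPM per kb in 3 mo wild-type mice, Myh1 394 ± 44.3, Myh2 67.5 ± 11.6, linc-MYH 30.2 ± 3.40, Myh8 0.458 ± 0.0840, Myh7 0.311 ± 0.232 and Myh3 0.163 ± 0.0376 (n = 4). In this order Myh8 and Myh7 overlapped, as did Myh7 and Myh3. In 19 mo V338Y mice the order was Myh4 (7579 ± 3240), Myh1 (1061 ± 908), Myh2 (236 ± 300), Myh7 (36.7 ± 69.2), linc-MYH (9.17 ± 4.48), Myh3 (0.967 ± 0.803) and Myh8 (0.630 ± 0.184), and the mice overlapped between each gene and the next except between Myh4 and Myh1 and between linc-MYH and Myh3. The place of Myh7 in this order rests on mouse 5, at 140 CPM per kb, and its median was 3.17 against 9.94 CPM per kb for linc-MYH. The order of Myh3 and Myh8 in these mice depends on the length used. The union of exons is 11772 bp in Myh8, whose longest transcript has 6149 bp, and 6057 against 6031 bp in Myh3. Summed over the 6 heavy chains the level was 11874 ± 628 and 12174 ± 523 CPM per kb in 3 mo wild-type and V338Y mice (n = 4 each), and 10919 ± 2544 (n = 3) and 8913 ± 2249 CPM per kb (n = 4) at 19 mo.

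As a share of this sum Myh4 was 95.7% to 96.9% in 3 mo wild-type mice and 94.6% to 95.9% in 3 mo V338Y mice. At 19 mo it was 96.5%, 95.8% and 76.5% in the wild-type mice 2, 4 and 5 and 84.9%, 94.8%, 95.9% and 54.1% in the V338Y mice 2 to 5. Only the mice numbered 5 and the V338Y mouse 2 were below the range of the young mice. What Myh4 lacked in these mice was mostly Myh1, with 16.3% in the wild-type mouse 5 and 13.5% and 33.9% in the V338Y mice 2 and 5. Myh2 made up 6.81% and 9.92% in the mice numbered 5 and at most 1.57% in all others, and Myh7 2.04% in the V338Y mouse 5 and at most 0.425% elsewhere. The Myh4 share differed by -0.81 percentage points between genotypes at 3 mo, -7.17 points at 19 mo, and -6.52 and -12.9 points with age in wild-type and V338Y mice. None of 24 exact two-sided permutation tests of shares (6 isoforms in 4 comparisons) passed an adjusted p of 0.05. The smallest p these group sizes allow, 0.0286, was reached by Myh7, Myh3 and Myh8 with age in wild-type mice (adjusted p = 0.229 in the exact permutation test).

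**Figure D4:**
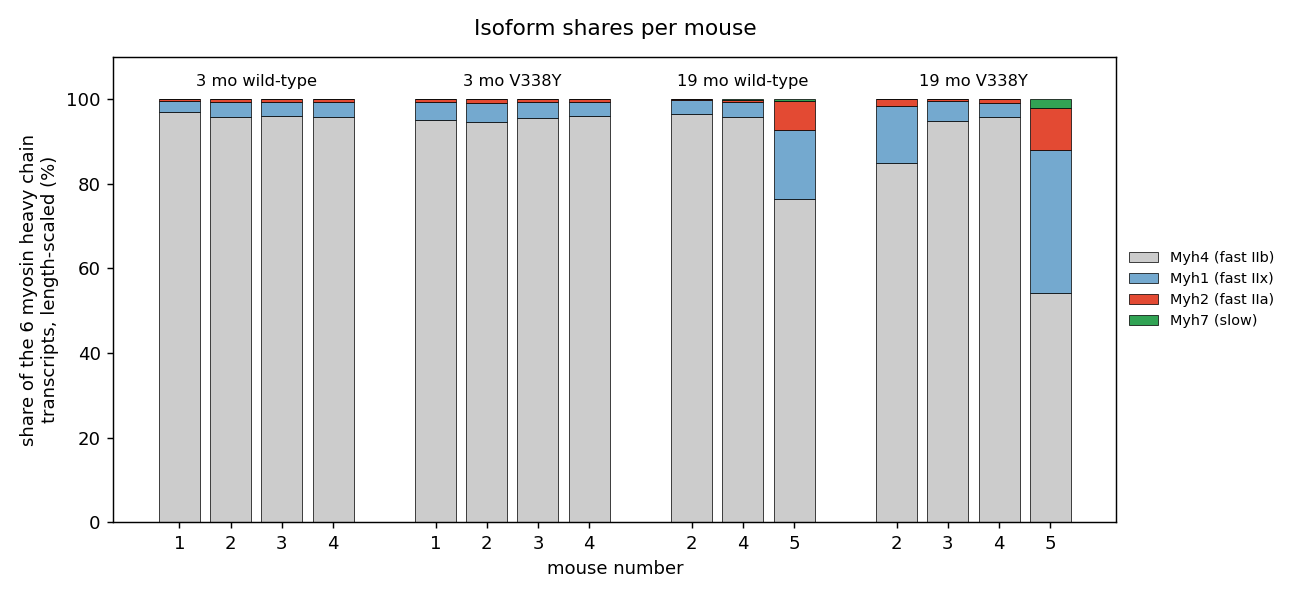
Share of each heavy chain in the sum of 6, in percent of CPM per kb of exon, for every mouse, grouped by age and genotype, drawn for the 4 adult isoforms since Myh3 and Myh8 are too small to see. Myh4 fills 94.6% to 96.9% of the bar in every 3 mo mouse and 54.1% in the 19 mo V338Y mouse 5.

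Relations between members were computed within each age on log2(CPM + 0.5), 20 in all, and adjusted together. At 19 mo mice with more Myh4 had more linc-MYH, with r = 0.93 over 7 mice (exact permutation p = 0.00159, adjusted p = 0.0159) and rho = 0.89 (p = 0.0123, adjusted p = 0.0769, exact permutation). Within genotypes, as deviations from the genotype means, r was 0.94 (adjusted p = 0.0298, permutation). The 2 mice farthest from the median of linc-MYH were those numbered 5. Without them r was 0.81 (exact permutation p = 0.0917, 5 mice), so the relation rests in part on those mice. With each mouse left out r was 0.83 to 0.98, and its adjusted permutation p, 0.0278 to 0.106, missed the threshold for 4 of the 7. With Myh1 the linc-MYH level had r = -0.78 (exact permutation p = 0.0377, adjusted p = 0.0838) and rho -0.54 (adjusted p = 0.363), and 0.053 without the 2 farthest mice. With Myh8 r was 0.13 (adjusted p = 0.813, permutation) and rho 0.11 (adjusted p = 0.840), and -0.046 without them. Myh4 and Myh1 had r = -0.83 (exact permutation p = 0.0183, adjusted p = 0.0522) and rho -0.64 (adjusted p = 0.231), and -0.69 without the 2 farthest mice. Scaled to contractile genes r of linc-MYH with Myh4 was 0.96, with an adjusted permutation p of 0.0635.

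For Myh2, Myh7 and Myh3 at 19 mo, where the mice numbered 5 stood apart, and for linc-MYH at 3 mo, where the genotypes did, no value is given because a relation over separate clusters cannot be tested. The mice numbered 5 were also the lowest in linc-MYH and the highest in Myh1 at 19 mo. The relations given above for these 2 genes therefore carry the same limit. Of the 6 relations with an adjusted p under 0.05, 4 are left out for this reason, those of linc-MYH with Myh2 and with Myh3, of Myh4 with Myh2 and of Myh1 with Myh2 at 19 mo. At 3 mo Myh1 and Myh2 had r = 0.86 over 8 mice (exact permutation p = 0.00764, adjusted p = 0.0255) and rho = 0.83 (adjusted p = 0.0769). Without the 2 mice farthest from the median r was 0.45 (exact permutation p = 0.371), so the relation rests on those mice. Myh4 had r = 0.33 with Myh1 (rho 0.40) and 0.27 with Myh2 (rho 0.33), with adjusted p of 0.5025 and 0.5264 in the permutation test, and r was 0.13 and 0.27 without the 2 farthest mice. No rank correlation passed an adjusted p of 0.05.

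**Figure D5:**
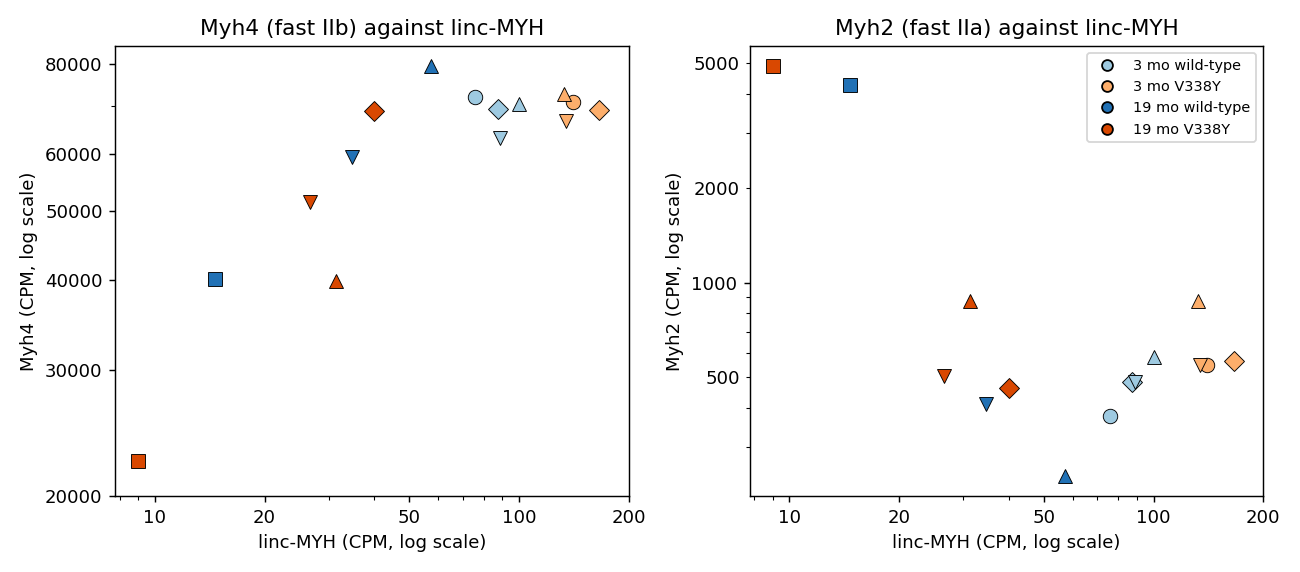
CPM of Myh4 (left) and Myh2 (right) against that of linc-MYH for each mouse, on logarithmic axes, with color for age and genotype and marker shape for the mouse number. Among the 19 mo mice linc-MYH is highest, at 57.2 CPM, in the wild-type mouse 2, which has the highest Myh4 (79603 CPM), and lowest, at 9.0 CPM, in the V338Y mouse 5, which has the lowest Myh4 (22410 CPM).

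The partners of fast fibers were lower with age. Of the 10 genes listed, the fast troponins Tnnt3, Tnni2 and Tnnc2, the fast light chains Mylpf and Myl1, the calcium pump Atp2a1, the calcium store protein Casq1, the calcium buffer Pvalb, Actn3 and Mybpc2, 5 were down-regulated in wild-type and 9 in V338Y mice, where 36.2% and 46.9% of all genes passed in either direction. Myl1 was at 6120 to 7932 CPM in 3 mo and 2477 to 4190 CPM in 19 mo wild-type mice, with a log2 fold change of -1.04 (SE 0.19, edgeR adjusted p = 0.00311). In V338Y mice it was at 7099 to 8913 CPM at 3 mo and 1901 to 3692 CPM at 19 mo, and its log2 fold change of -1.53 (SE 0.22, adjusted p = 5.98e-04) was the lowest of the list. Atp2a1 alone was up-regulated, with 0.95 (SE 0.14, adjusted p = 0.00128) in wild-type mice, and also passed the test in V338Y mice. The list's median log2 fold change was -0.57 for the wild type and -0.998 for V338Y mice, against 0.019 and 0.072 over all genes tested. Scaled to contractile genes, which moved the median of all genes tested to 0.14 and 0.58, 3 and 5 genes of the list were down-regulated and 1 up-regulated in either genotype. Among V338Y mice this scaling turned the split of all calls from 3389 up and 3116 down to 6560 up of 6834. Without the 3 mo V338Y mouse 1, 6 genes of the list were down- and 0 up-regulated in V338Y mice.

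Among regulators of the fast program, Nfix and Vgll2 were higher and Eya4 was lower at 19 mo than at 3 mo. Nfix, a factor of the switch from fetal to adult muscle, lay between 39.6 and 53.5 CPM at 3 mo and between 114 and 161 CPM at 19 mo, with log2 fold changes of 1.65 (SE 0.12, edgeR adjusted p = 6.85e-05) and 1.54 (SE 0.13, adjusted p = 6.22e-05). Vgll2, a cofactor of Tead proteins, was at 2.54 to 5.13 CPM in 3 mo mice and 10.0 to 14.96 CPM in 19 mo mice other than those numbered 5, in which it was at 33.003 and 29.8 CPM. Eya4, a transcriptional cofactor, was down-regulated in both genotypes, with -0.81 (SE 0.16, adjusted p = 0.00537) in wild-type and -0.72 (SE 0.15, adjusted p = 0.00398) in V338Y mice.

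Regulators of slow and oxidative fibers, the calcineurin pathway, Mef2 factors, PGC-1 coactivators and nuclear receptors among them, had 9 up- and 2 down-regulated of 23 in wild-type and 10 up- and 1 down-regulated in V338Y mice, against 36.2% and 46.9% of all genes called. Scaled to contractile genes, 14 and 16 were up-regulated, in fits where 74% and 96% of the calls over all genes were up. The median of all genes tested was then 0.14 and 0.58. The calcineurin target Nfatc1 rose by 1.69 (SE 0.11, edgeR adjusted p = 3.46e-05) and 1.42 (SE 0.16, adjusted p = 1.99e-04), and Nfatc2 by 1.70 (SE 0.12) and 1.31 (SE 0.14). Esrrg, a nuclear receptor of oxidative fibers, was at 31.5 and 35.6 CPM in the 19 mo mice numbered 5 and at 4.01 to 10.7 CPM in all others. Other genes of this list had lower means at 19 mo. Rcan1 averaged 65.3 CPM at 3 mo and 27.9 CPM at 19 mo in wild-type mice, and 56.7 and 38.6 CPM in V338Y mice. Esrra averaged 69.6 and 38.3 CPM in wild-type and 68.0 and 40.0 CPM in V338Y mice. Among genes of the thick filament and its assembly, 3 of 13 were up- and 4 down-regulated in wild-type mice and 2 up- and 4 down-regulated in V338Y mice, again against 36.2% and 46.9% of all genes. Without the wild-type mouse 5 the numbers were 1 and 2 in wild-type mice. In V338Y mice they were 4 and 2 after scaling to contractile genes, 1 and 3 without the 3 mo mouse 1, and 1 and 5 without mouse 5. The myosin methyltransferase Smyd1, required for sarcomere assembly, was lower in both, with -0.65 (SE 0.12, adjusted p = 0.00394) and -0.96 (SE 0.16, adjusted p = 0.00116).

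Heavy chains outside the set of 6 were mostly those of other cells. Of 7 tested, 5 were up-regulated with age in wild-type mice, namely nonmuscle Myh9, Myh10 and Myh14, smooth muscle Myh11 and the slow-fiber relative Myh7b, and 2, Myh9 and Myh11, in V338Y mice, where 36.2% and 46.9% of all genes passed in either direction. Without the wild-type mouse 5 the number in wild-type mice was 3. Scaled to contractile genes the number in V338Y mice was 5, where 96% of the calls over all genes were up. Myh9 was at 77.2 to 110 CPM at 3 mo and 154 to 219 CPM at 19 mo. In the genotype comparisons and the interaction 0 genes of any of these lists passed the test by edgeR other than linc-MYH at 3 mo. Eya4, for example, differed by -0.38 at 3 mo (SE 0.10, adjusted p = 0.330).

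The genes whose levels followed the members most closely were sought among 9457 genes with a mean of at least 5 CPM, as Pearson's r of log2(CPM + 0.5) over 15 mice after each group's mean was removed. Since the mice numbered 5 carry much of that variation in several members, r without them is given second. For Myh4 they were Actn3, the actin-binding protein of fast fibers (0.99 and 0.97), Tpm1, Reep1, Mybpc2 and Cnih1 (all at least 0.968). Those of Myh1 were Mdh1 (0.98 and 0.94), Atp5b, Got1, Rcan2 and Got2, and those of Myh2 were Tmem65, Ldhb (0.98 and 0.94), Atp1b1, Bdh1 and Mtx2. Myl2 and Myl3 followed Myh7 (0.98 and 0.96, 0.97 and 0.97), then Tnnc1, Xab2 and Tnnt1. For linc-MYH the nearest genes were Itm2a, a membrane protein (0.98 and 0.94), Ampd1, the AMP deaminase of skeletal muscle (0.96 and 0.86), Crot, Sh3bgr and Camk2g. The scarce isoforms had lower values, with Igf2 (0.91 and 0.91) nearest to Myh8 and Gm22133 (0.94 and 0.94) nearest to Myh3. In both isoforms the young V338Y mouse 1 stood apart from the other young V338Y mice. Its Myh3 was at 24.2 against 0.346 to 1.99 CPM and its Myh8 at 27.7 against 4.73 to 6.70 CPM. This mouse is in both values of r, so the second value cannot show whether these neighbors rest on it. That was not tested.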

How the data were processed

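Quadriceps samples of 15 mice were sequenced as single-end libraries, made with an mRNA kit that keeps strand. The methods of the study also name depletion of ribosomal RNA, so that selection by the poly(A) tail is not settled. The authors assigned the reads to genes of Ensembl with RSEM. The deposited values are expected counts per gene, written as whole numbers and scaled neither for depth nor for length. Their processing notes also name STAR 2.4.2a, CASAVA 1.8 and bcl2fastq 1.8.4, with GRCm38 among the builds. The counts were used without further rounding. RSEM divides reads that match several genes by estimated abundance, so that low values of close paralogs depend on the abundant ones. Of 39179 identifiers 37607 were matched to a symbol and position.

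A gene was tested where 50% or more of the mice in either group had 10 or more counts, the filter of the study. Counts were scaled by TMM and tested in R 4.3.3 with edgeR 4.0.16 (quasi-likelihood test, limma 3.58.1) fitted to the pair of groups in question, with all 15 mice for the interaction, and adjusted by the Benjamini-Hochberg method. The code was tested on simulated data. CPM per kb uses the union of annotated exons, from GENCODE annotation on GRCm38. Shares were compared by exact permutation of mice and relations by exact permutation of pairings, on log2(CPM + 0.5). Each library is 1 mouse by its label, and counts within groups differed beyond counting error (chi-square per gene 5.85 to 110.8 over 21 pairs). At 19 mo the deviations of same-numbered mice correlated in all 3 pairs (r = 0.14 to 0.41), but not beyond the range of the 9 other pairs (-0.42 to 0.49). The labels do not say that the number pairs mice. Totals of 8250653 to 18968132 counts limit the precision of genes with few counts, and errors over mice are given in place of counting intervals.

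The members and gene lists were chosen with earlier results of these data known. Named were the 7 members, the genes of their cluster, up to 4 genes of each list with the smallest adjusted p (or 2 where none passed), the genes most like each member, and sex-linked genes and Mrps5 as a check. Levels of further list genes that the text gives, such as Chrng, Mymk, Actc1, Esrrg and Myh9, were picked after their values were seen. Alternatives were other normalizations, scaling to 10 contractile genes, sizes without the 10 most counted genes, DESeq2 1.42.0, other filters, the mouse number as a block, a fit of all mice, other scalings of shares and relations, and each mouse left out. Leaving out both 19 mo mice numbered 5 was added after seeing the data. The age counts over the list of fast-program regulators and 1 of the motifs searched are not reported here. Sequences and motifs came from RefSeq windows of GRCm38.p6.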

Additional observations from a re-analysis of the deposited data

Results flagged for a closer look

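In groups of 4 mice, 39 sets of values were examined for a lone mouse whose gap to the nearest other exceeded the share of the group's range that Dixon's test sets, and 10 sets held one. Chance alone marks about 1 in 20. Several of these sets share a mouse, and each share repeats the CPM of the same gene.

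The 19 mo V338Y mouse 5 stood apart in Myh2, with 4880 CPM against 462 to 876 CPM in the other mice of its group and a share of 9.92% of the heavy chain sum against 0.538% to 1.57%. It also stood apart in Myh7, with 1210 CPM against 0.604 to 28.3 CPM and a share of 2.04% against 0.000581% to 0.0420%.

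The 3 mo V338Y mouse 1 stood apart in Myh3, with 24.2 CPM against 0.346 to 1.99 CPM and a share of 0.0323% against 0.000495% to 0.00273%. Its Myh8 was at 27.7 CPM against 4.73 to 6.70 CPM, a share of 0.0190% against 0.00348% to 0.00474%. The 3 mo V338Y mouse 2 stood apart in Myh2 with 878 CPM against 546.5 to 564 CPM, a share of 0.963% against 0.622% to 0.663%. The 19 mo wild-type mice, 3 in number, were too few to be examined in this way.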

How the results depend on the processing

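Counts of genes that passed the test moved by over 1.5 times as follows. At 3 mo, 10 genes differed between genotypes, and 66 did so by DESeq2, 33 without a filter and 4 after scaling to contractile genes. At 19 mo, 6 did, and 62 did so by DESeq2 and 14 without a filter. The interaction had 0, and 26 by DESeq2, 5 without a filter and 28 under a replicate block by mouse number. With each mouse left out the counts were 3 to 14 at 3 mo and 2 to 7 at 19 mo. Of the 20 relations 6 passed, 1 did after contractile scaling, 0 without both mice numbered 5, and 0 to 8 with each mouse left out. DESeq2 gave no adjusted p for Myh2 in any comparison but genotype at 3 mo, for Myh7 and Myh3 with age in V338Y mice and for Myh3 at 3 mo.

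The replicate block by mouse number called 2229 genes with age in wild-type mice, against 4940, and 110 by genotype at 19 mo, against 6. In the other comparisons the deviations of same-numbered mice had r = -0.17 to 0.16 at 3 mo, -0.14 to 0.015 with age in V338Y and 0.0037 to 0.022 in wild-type mice. With the block the age difference in wild-type mice was -0.058 in Myh1, -0.74 in Myh2 and 0.053 in Myh4, and 0.38 points in the Myh4 share, all opposite in sign to the fit without it. In V338Y mice it was -0.12 in Myh2, -0.22 in Myh7, 1.26 in Myh3 and 0.45 in Myh8, also opposite, and the interaction of Myh2 was 0.32. Of the members' calls the block ended those of Myh8 with age in wild-type mice (0.48, adjusted p = 0.182) and of linc-MYH at 3 mo, and it added that of the interaction of linc-MYH. In these fits a mouse whose number occurs at only 1 age, such as the 19 mo mice numbered 5, does not enter the age difference. That difference rests on 2 same-numbered pairs in wild-type and 3 in V338Y mice. Beyond this, the cause of these differences and of those below was not tested.

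Scaling to contractile genes turned the sign of Myh3 with age in V338Y mice (0.17), of Myh4 at 3 mo (-0.047), of Myh8 at 19 mo (0.22), of the interaction of Myh2 (0.11) and of the relation of Myh4 with Myh2 at 3 mo (-0.37). It made the age differences of Myh1, Myh2 and Myh7 in V338Y mice pass the test (1.71, 1.98 and 5.01). In that fit 96% of the calls over all genes were up. Without both mice numbered 5 the genotype difference at 19 mo was -2.36 in Myh7 and 0.16 in Myh8, the interaction of Myh2 was 0.55, the Myh4 share with age in wild-type mice 0.031 points, and the relations of linc-MYH with Myh1 and Myh8 at 19 mo 0.053 and -0.046.

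With each mouse left out, results that changed sign had these ranges. With age in wild-type mice they were -0.56 to 2.27 in Myh2 and -0.47 to 0.0098 in Myh4, and in V338Y mice -0.018 to 1.72 in Myh2, -1.13 to 2.08 in Myh3 and -0.87 to 0.36 in Myh8. By genotype they were -0.011 to 0.052 in Myh4 at 3 mo, and at 19 mo -0.19 to 1.43 in Myh1, -1.38 to 2.39 in Myh2, -3.19 to 1.76 in Myh7, -0.68 to 0.80 in Myh3, -0.35 to 0.050 in Myh8 and -0.76 to 0.14 in linc-MYH. The interaction was -0.49 to 1.11 in Myh1 and -1.77 to 1.97 in Myh2. The Myh4 share differed by -9.98 to 0.031 points with age in wild-type mice and by -13.7 to 2.28 points by genotype at 19 mo. The relation of Myh4 with Myh2 at 3 mo was -0.17 to 0.67 and that of linc-MYH with Myh8 at 19 mo -0.46 to 0.46. None of these results passed the test as reported. Age differences that passed only without 1 mouse, other than Myh3 above, were those of Myh2 in wild-type mice without the 19 mo mouse 2 (2.27, adjusted p = 0.0264), of Myh1 there without mouse 4 (1.24, 0.0414) and, in V338Y mice, of Myh1 without the 19 mo mouse 4 (1.46, 0.0215) and of Myh4 and Myh7 without mouse 3 (-0.88, 0.0421, and 4.83, 0.0323). DESeq2 called Myh4 (-0.62, 0.0407) and a fit of all 15 mice or no filter called Myh7 (4.42, 0.0335, and 4.39, 0.0478) in V338Y mice, and no filter called Myh2 in wild-type mice (1.73, 0.0437). The calls of Myh7 and Myh3 with age in wild-type mice and of linc-MYH with age in V338Y mice held in every fit with a mouse left out, and that of Myh3 was lost in a fit of all 15 mice (adjusted p = 0.0786).

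Shares of the other 5 isoforms and relations over clustered values, whose differences the text does not give, were recomputed in the same way, and 20 of 237 and 5 of 132 values changed sign. Genes under about 10 counts in some mice, Myh3 and Myh7, are limited by depth, and the small groups limit all tests of shares.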
